A study of Mus musculus with 9 samples.

Results

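The 28 genes described here encode enzymes of the sterol synthesis route from acetoacetyl-CoA to cholesterol and the SREBP machinery that controls it, with a sterol carrier (Stard4) and a sterol-esterifying enzyme (Soat1). They were taken as a named list, in the order of the route, and each was measured by its brightest probe set that carries a single gene name, brightest meaning the highest mean over the 9 arrays. Of the 28, 26 had such a probe set among 18193 genes, and Acat2 and Soat1 had none in the annotation used here, so no value is given for them. The 26 fell into 7 genes of the mevalonate arm, 11 of the sterol arm, 7 of SREBP control and Stard4. The genes lie on 15 mouse chromosomes. Genes outside the 28 enter only through lists of neighbouring pathways and of cell markers.

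Gene expression was measured on Affymetrix Mouse Genome 430 2.0 arrays in bone marrow-derived macrophages (BMDMs), cells grown out of BALB/c bone marrow with the growth factor M-CSF. All 9 cultures came from mice of 8 to 10 weeks, were kept, per the labels, for 7 days in 10% FBS with 20 μg/ml M-CSF and then overnight in 1% FBS with M-CSF, so all 3 groups shared a low-serum medium before treatment. The published methods state the M-CSF of the growth phase in ng rather than μg per ml, and which unit holds could not be settled here. In the 3 arrays of TNC + vehicle, the cells received 0.1% DMSO for 1 h and then 2 μg/ml recombinant tenascin C (TNC, a matrix glycoprotein) for 6 h. In the 3 arrays of TNC + TLR4i, they received 3 μM TAK-242, a small-molecule inhibitor of Toll-like receptor 4 (TLR4), for 1 h and then the same TNC. The 3 untreated arrays have no vehicle stated in the labels, and no group of vehicle alone or inhibitor alone was among the 9. The effects of TNC and of the vehicle therefore cannot be told apart in the comparison with untreated cells. The labels call the replicates biological but do not say that they came from separate mice, so p-values measure the spread between these samples.

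Cells make cholesterol from acetyl-CoA through mevalonate and isoprenoid diphosphates, then through squalene and lanosterol, with most steps on the endoplasmic reticulum. When sterol in that membrane falls, Scap escorts the SREBP precursors to the Golgi, where the proteases of Mbtps1 and Mbtps2 release the active factor, and when sterol is plentiful, Insig1 and Insig2 hold the complex back. SREBP-2, the product of Srebf2, mainly drives sterol genes and SREBP-1, the product of Srebf1, mainly fatty acid genes, while Srebf2, Insig1 and Stard4 are themselves known SREBP targets. In macrophages the route is studied because its intermediates and oxysterols bear on inflammatory responses.

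The promoters of 5 genes are shown because they stand for the roles that moved: the early enzyme Hmgcs1, the isomerase Idi1 and the demethylase Cyp51, which had the largest differences of the mevalonate and sterol arms, and the control genes Srebf2 and Insig1. Each run is the 250 bases before the annotated start in RefSeq (GRCm38.p6), 5′ to 3′ along the gene. Capitals mark matches on either strand to TCACNCCA, a form of the sterol regulatory element, to CACGTG, an E-box that reads the same on both strands, and to CCAAT, the box bound by NF-Y, read as ATTGG from the other strand. The runs lie at chr13:119690101-119690350 on the plus strand for Hmgcs1, chr13:8885356-8885605 on the plus strand for Idi1, chr5:4104698-4104947 on the minus strand for Cyp51, chr15:82147019-82147268 on the plus strand for Srebf2 and chr5:28071162-28071411 on the plus strand for Insig1.
Hmgcs1: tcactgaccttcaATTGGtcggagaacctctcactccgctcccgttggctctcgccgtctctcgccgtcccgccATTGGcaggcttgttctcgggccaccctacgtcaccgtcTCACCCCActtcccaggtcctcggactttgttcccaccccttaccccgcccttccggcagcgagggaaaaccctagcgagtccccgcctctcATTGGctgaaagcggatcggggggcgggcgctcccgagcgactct
Idi1: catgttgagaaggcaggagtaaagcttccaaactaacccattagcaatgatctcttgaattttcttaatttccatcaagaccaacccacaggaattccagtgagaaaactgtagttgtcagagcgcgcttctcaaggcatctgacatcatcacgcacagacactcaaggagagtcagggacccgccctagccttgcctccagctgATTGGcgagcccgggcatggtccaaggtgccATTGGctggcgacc
Cyp51: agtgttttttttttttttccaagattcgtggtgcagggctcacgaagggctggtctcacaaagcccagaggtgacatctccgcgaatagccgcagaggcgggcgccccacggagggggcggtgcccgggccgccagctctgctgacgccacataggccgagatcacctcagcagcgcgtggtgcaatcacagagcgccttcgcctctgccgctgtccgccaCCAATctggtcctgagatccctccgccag
Srebf2: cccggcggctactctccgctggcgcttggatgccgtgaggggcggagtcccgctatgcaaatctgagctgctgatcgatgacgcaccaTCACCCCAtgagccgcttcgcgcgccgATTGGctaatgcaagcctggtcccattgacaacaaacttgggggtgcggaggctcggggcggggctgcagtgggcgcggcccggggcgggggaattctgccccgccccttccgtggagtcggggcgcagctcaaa
Insig1: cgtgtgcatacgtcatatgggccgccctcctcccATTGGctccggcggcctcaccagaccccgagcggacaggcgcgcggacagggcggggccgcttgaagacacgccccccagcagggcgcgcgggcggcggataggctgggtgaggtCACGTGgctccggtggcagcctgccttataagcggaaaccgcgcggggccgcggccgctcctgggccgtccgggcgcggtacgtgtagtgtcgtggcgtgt

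In Hmgcs1 the TCACNCCA match began 137 bases before the start, and 3 CCAAT matches lay at 237, 176 and 45 bases. In Srebf2 the corresponding match began at 162 bases, with a CCAAT match at 135. Idi1 had CCAAT matches at 45 and 14 bases and Cyp51 had 1 at 29, while Insig1 had a CACGTG match at 101 bases and a CCAAT match at 216. Promoters were held for 24 of the 28 genes, all but Fdps, Fdft1, Sqle and Stard4. CCAAT was found in 20 of the 24 (83.3%) and in 37.5% of 27025 genes with a promoter in the same table, counting a gene where any of its starts matched. Among the members with a measured level, CCAAT was found in 12 of the 12 that were called higher with TNC and in 7 of the 10 that were not called. TCACNCCA was found in Hmgcs1, Msmo1 and Srebf2, 3 of 24 (12.5%), against 4.20% of all genes, and CACGTG in 5 of 24 (20.8%), against 6.86%. Among the 14452 genes with a promoter and a single-gene probe set, the shares were 39.4% for CCAAT, 4.05% for TCACNCCA and 8.73% for CACGTG. These are matches of letters and not measured binding, and no match says only that the letters are not in this stretch.

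Macrophage markers were high in every array. The median log2 signal of 8 macrophage markers lay between 12.84 and 12.95, against array medians of 6.72 to 6.74 over all probe sets. In the first TNC + vehicle array the median of 12 endothelial markers was 7.50, against 6.53 to 6.73 in the other 8 arrays. Of the 12, 1 was called higher with TNC and 2 lower with TLR4i, and the part of this in the results was not tested; without that array, 16 members were still called higher with TNC and 16 lower with TLR4i. The median of 7 fibroblast markers was 9.43 to 9.82 with TNC + vehicle, 9.15 to 9.35 in untreated cells and 9.01 to 9.49 with TNC + TLR4i. Some were as high as macrophage markers: over the 9 arrays Col1a2 had a mean of 13.24 and Col3a1 11.77, while Lum, the lowest, had 6.61. Limma called 0 of the 7 in any comparison. At an unadjusted p under 0.05, 2 were above and 2 below with TNC, and 0 above and 2 below with TLR4i. The part of the fibroblast markers in the results was not tested. The median of 7 neutrophil markers was 7.24 to 7.25 with TNC + vehicle, 6.84 to 6.98 with TNC + TLR4i and 6.81 to 7.30 in untreated cells, with the second untreated array the highest of the 9. None of the 7 was called by limma in the first 2 comparisons (at an unadjusted p under 0.05, 1 higher and 1 lower with TNC, and 1 lower with TLR4i), and Camp, an antimicrobial peptide of neutrophil granules, had 0.28 with TNC (adjusted p = 0.0455) and -0.33 with TLR4i (adjusted p = 0.00314). The part of the neutrophil markers in the results was not tested. The 3′ minus 5′ difference of the beta-actin control probe sets, a sign of RNA integrity, was 0.20 to 0.22 with TNC + vehicle, 0.29 to 0.32 in untreated cells and 0.30 to 0.37 with TNC + TLR4i. That of the Gapdh control probe sets was -0.33 to -0.30, -0.35 to -0.33 and -0.32 to -0.26 in the same order, so it did not set the TNC + vehicle arrays apart. The part of the actin difference in the results was not tested.

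The first comparison set macrophages given vehicle and 6 h of TNC against untreated cells. Changes described as with TNC are those of TNC + vehicle, in which the effects of TNC and of the vehicle cannot be told apart. Sterol synthesis genes rose along the route, with 5 of 7 measured genes of the mevalonate arm, 8 of 11 of the sterol arm, Srebf2 and Insig1 of the 7 control genes, and Stard4 called higher. The rises ran from 1.69-fold for Stard4 to 3.27-fold for the isomerase Idi1, and 11 genes rose at least 2-fold. A gene was called where the Benjamini-Hochberg adjusted p of limma was under 0.05 and the change at least 1.5-fold. In all, 16 of 26 members were called higher and 0 lower, where 3.74% of all genes were called higher and 4.05% lower. The members' median log2 difference was 0.93, against 0.01 over all genes. At an adjusted p under 0.05 and any size, 19 members were higher (12.1% of all genes) and 3 lower (16.0% of all genes). At an unadjusted p under 0.05, 4 members were lower, for which the share over all genes was not counted.

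**Figure D1:**
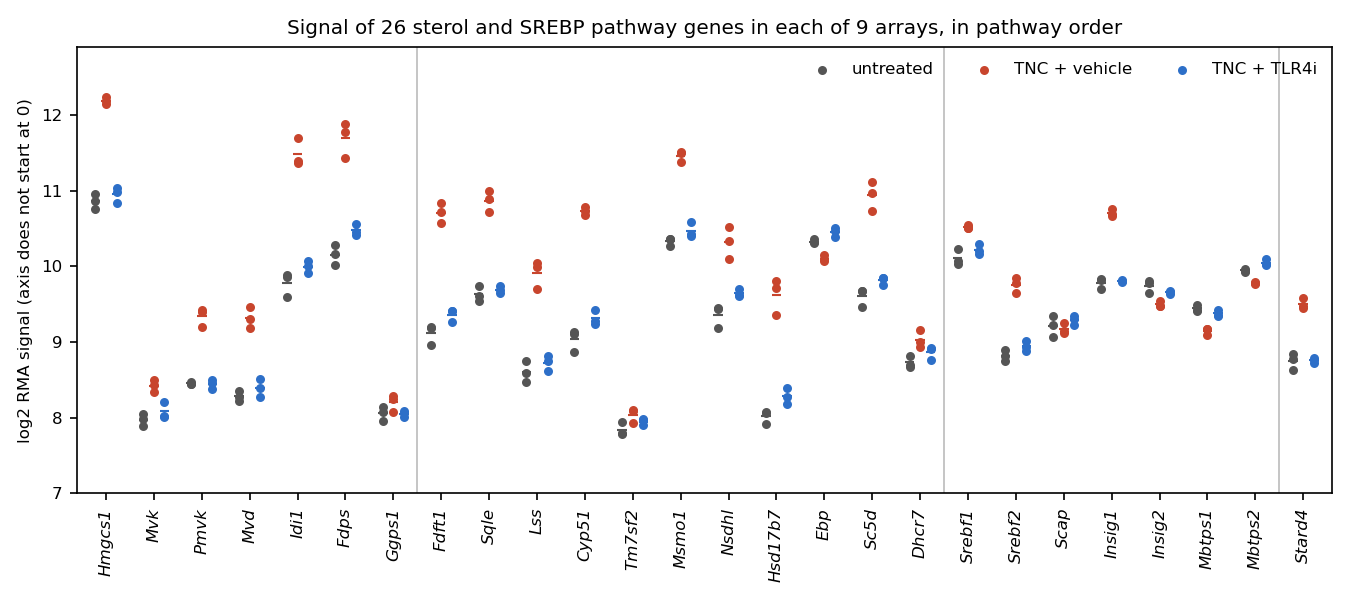
Log2 RMA signal (vertical axis, not starting at 0) of the 26 measured genes in pathway order, with a point for each of 9 arrays and a short bar at each group's mean; grey lines separate the mevalonate arm, the sterol arm, SREBP control and Stard4. For 19 genes the 3 TNC + vehicle arrays lie above all arrays of the other 2 groups, while genes such as Ggps1 and Scap overlap. The 19 are the 16 called genes, among them Hmgcs1, Idi1 and Cyp51, and also Mvk, Dhcr7 and Srebf1, which were not called. Over all genes, the TNC + vehicle arrays lay above the untreated arrays in 19.7%. The TNC + TLR4i arrays lay below the TNC + vehicle arrays in 18.4% of all genes. The share of all genes that met both was not counted.

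The mevalonate arm rose from its first measured step. Hmgcs1, the cytosolic HMG-CoA synthase, had log2 signals of 10.76, 10.96 and 10.87 in untreated cells, 12.14, 12.19 and 12.24 with TNC + vehicle, and 11.03, 10.84 and 10.99 with TNC + TLR4i. All 3 TNC + vehicle arrays lay above the other 6, whose groups overlapped, and the gene rose 2.51-fold with TNC (log2 difference 1.33 ± 0.07 SE, adjusted p = 1.28e-07). Mvk, the mevalonate kinase, had 7.99, 8.05 and 7.88 in untreated cells, 8.34, 8.42 and 8.49 with TNC + vehicle, and 8.21, 8.03 and 8.01 with TNC + TLR4i. Its groups did not overlap between untreated and TNC + vehicle, but at 1.36-fold (0.45 ± 0.07, adjusted p = 0.000793) it stayed under the size needed for a call. Pmvk, which adds the next phosphate, lay at 8.45 to 8.46 in untreated cells, 9.20 to 9.43 with TNC + vehicle and 8.38 to 8.49 with TNC + TLR4i, and rose 1.85-fold (0.89 ± 0.07, adjusted p = 3.97e-06). Mvd, the decarboxylase that yields isopentenyl diphosphate, had 8.22, 8.35 and 8.27 in untreated cells against 9.19, 9.31 and 9.46 with TNC + vehicle, a rise of 2.06-fold.

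Idi1, which converts isopentenyl diphosphate to its allylic isomer, had the largest difference of the 26 genes. Its log2 signals were 9.59, 9.89 and 9.85 in untreated cells, 11.39, 11.70 and 11.37 with TNC + vehicle, and 10.06, 9.91 and 10.00 with TNC + TLR4i. The rise with TNC was 3.27-fold (1.71 ± 0.10, adjusted p = 2.91e-07), and all 3 TNC + vehicle arrays lay above the other 6. Fdps, which builds farnesyl diphosphate, had 10.01, 10.28 and 10.16 in untreated cells, 11.43, 11.78 and 11.88 with TNC + vehicle, and 10.56, 10.42 and 10.45 with TNC + TLR4i. It rose 2.93-fold (1.55 ± 0.11, adjusted p = 1.07e-06). Ggps1 makes geranylgeranyl diphosphate for protein prenylation, a branch that leaves the sterol route. Its signals of 7.95, 8.08 and 8.14 in untreated cells, 8.29, 8.08 and 8.24 with TNC + vehicle and 8.01, 8.06 and 8.08 with TNC + TLR4i overlapped, and the difference with TNC was 0.14 (95% interval -0.03 to 0.32, adjusted p = 0.239). None of the 4 Ggps1 probe sets was called.

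In the sterol arm the genes from squalene to the demethylated sterols rose, with Tm7sf2 as the exception, and those of the last steps were mixed. Fdft1, the squalene synthase that commits farnesyl diphosphate to sterols, had 8.96, 9.18 and 9.19 in untreated cells, 10.57, 10.71 and 10.84 with TNC + vehicle, and 9.41, 9.27 and 9.41 with TNC + TLR4i. It rose 3.02-fold (1.59 ± 0.09, adjusted p = 1.61e-07). Sqle, the squalene epoxidase, had 9.54, 9.61 and 9.74 in untreated cells against 10.71, 10.89 and 10.99 with TNC + vehicle, 2.36-fold higher. The lanosterol synthase gene Lss lay at 8.47 to 8.75 in untreated cells and at 9.70 to 10.04 with TNC + vehicle, 2.47-fold higher. Cyp51, the lanosterol demethylase, had 8.87, 9.10 and 9.14 in untreated cells, 10.68, 10.74 and 10.79 with TNC + vehicle, and 9.42, 9.24 and 9.28 with TNC + TLR4i. Its rise of 3.25-fold (1.70 ± 0.08, adjusted p = 4.99e-08) was close to that of Idi1. In each of these 4 genes the TNC + vehicle arrays lay above all others.

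The genes whose products remove the methyl groups at carbon 4 of the sterol followed. Msmo1, the methylsterol monooxygenase, lay at 10.27 to 10.36 in untreated cells and at 11.38 to 11.51 with TNC + vehicle, 2.19-fold higher. Nsdhl, the dehydrogenase of that step, had 9.19, 9.46 and 9.43 in untreated cells, 10.10, 10.33 and 10.53 with TNC + vehicle, and 9.71, 9.61 and 9.62 with TNC + TLR4i, and rose 1.94-fold (0.96 ± 0.11, adjusted p = 4.44e-05). Hsd17b7, the ketoreductase that follows it, had 7.91, 8.07 and 8.06 in untreated cells, 9.36, 9.71 and 9.81 with TNC + vehicle, and 8.39, 8.18 and 8.28 with TNC + TLR4i. Its rise was 3.05-fold (1.61 ± 0.11), and the 3 TNC + vehicle arrays of all 3 genes lay above the other 6. Sc5d, a sterol desaturase, rose 2.52-fold, from 9.46 to 9.68 in untreated cells to 10.73 to 11.12 with TNC + vehicle.

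The other 3 genes of the arm were not called. Tm7sf2, a sterol reductase whose step the lamin B receptor also performs, had 7.79, 7.94 and 7.79 in untreated cells and 7.93, 8.08 and 8.10 with TNC + vehicle, which overlapped (0.20, 95% interval 0.03 to 0.36, adjusted p = 0.0849). Ebp, the sterol isomerase, had 10.32, 10.36 and 10.30 in untreated cells, 10.06, 10.15 and 10.09 with TNC + vehicle, and 10.46, 10.39 and 10.50 with TNC + TLR4i. Its TNC + vehicle arrays were the lowest 3 of the 9, opposite to its neighbours in the route, with a log2 difference of -0.23 ± 0.06 (adjusted p = 0.0246) that was under 1.5-fold. Dhcr7, the reductase of the final step, had 8.70, 8.82 and 8.67 in untreated cells and 8.93, 9.16 and 8.99 with TNC + vehicle, a difference of 0.30 ± 0.08 (adjusted p = 0.0156), also under 1.5-fold.

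Of the SREBP control genes, Srebf2 and Insig1 were called and the other 5 were not. Srebf2 had 8.75, 8.89 and 8.81 in untreated cells, 9.65, 9.78 and 9.85 with TNC + vehicle, and 9.02, 8.93 and 8.88 with TNC + TLR4i, and rose 1.92-fold (0.94 ± 0.07, adjusted p = 2.28e-06). Srebf1 had 10.03, 10.24 and 10.08 in untreated cells, 10.51, 10.50 and 10.54 with TNC + vehicle, and 10.29, 10.16 and 10.20 with TNC + TLR4i. The Srebf1 difference of 0.40 ± 0.07 (1.32-fold, adjusted p = 0.00147) was under the size needed for a call, though its groups did not overlap. Within arrays, the change of Srebf2 relative to Srebf1 was 0.54 on the log2 scale (exact two-sided permutation test over 6 arrays, p = 0.1, the smallest that 3 against 3 allows). That change depends on the probe set of Srebf2. With the gene's other probe set, which rose by 0.49 (adjusted p = 0.00271, under 1.5-fold), it was 0.09 (exact permutation test, p = 0.7), and with the mean of each gene's probe sets it was 0.31. The other probe set was tried after the data were seen.

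Insig1 had 9.70, 9.82 and 9.83 in untreated cells, 10.70, 10.67 and 10.76 with TNC + vehicle, and 9.81, 9.82 and 9.79 with TNC + TLR4i, and rose 1.90-fold (0.93 ± 0.07, adjusted p = 1.30e-06). Insig2, its paralog with the same anchoring role, had 9.79, 9.65 and 9.80 in untreated cells, 9.54, 9.48 and 9.48 with TNC + vehicle, and 9.66, 9.64 and 9.68 with TNC + TLR4i. For Insig2 the 3 TNC + vehicle arrays were the lowest of the 9 (-0.24 ± 0.07, adjusted p = 0.0234, under 1.5-fold). The change of Insig1 relative to Insig2 within arrays was 1.17 (exact two-sided permutation test, p = 0.1, again the smallest possible). The other 2 probe sets of Insig2 had -0.02 and -0.17 with TNC, both with overlapping arrays, and with them in place of the brightest, also tried after the data were seen, the change of Insig1 relative to Insig2 was 0.95 and 1.10.

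**Figure D2:**
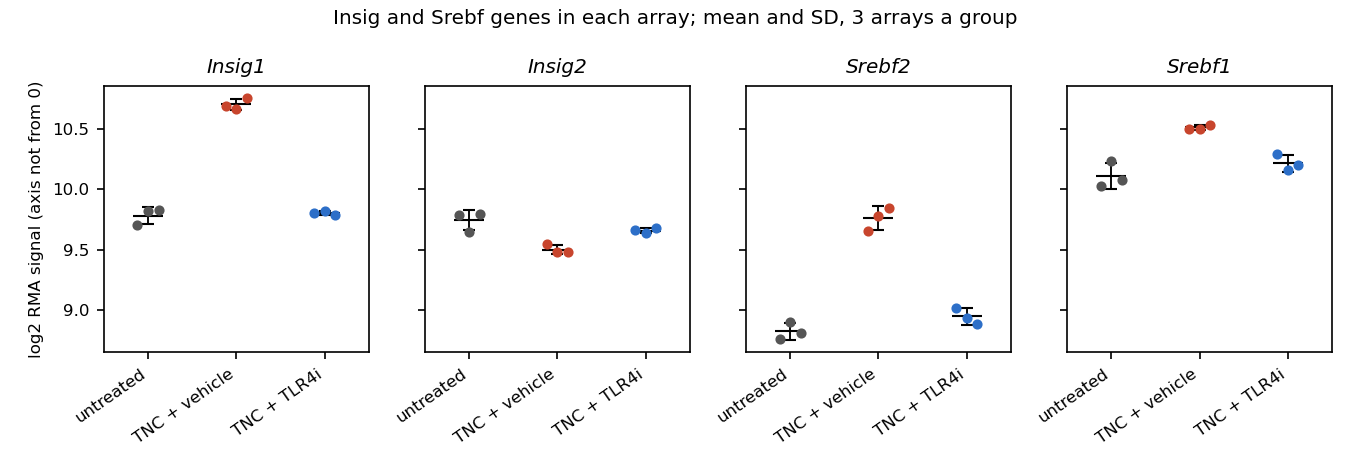
Log2 RMA signal (vertical axis, not starting at 0) of Insig1, Insig2, Srebf2 and Srebf1, with a point per array and bars at the mean and SD of 3 arrays; heights of different genes rest on different probes and are not comparable. Insig1 and Srebf2 rose with TNC + vehicle and were back near the untreated arrays with TNC + TLR4i, while the brightest probe set of Insig2 was lowest with TNC + vehicle.

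Scap and the proteases that free SREBP were not called. Scap, the SREBP escort, had 9.35, 9.06 and 9.22 in untreated cells, 9.25, 9.14 and 9.12 with TNC + vehicle, and 9.31, 9.34 and 9.22 with TNC + TLR4i, all overlapping, with a difference of -0.04 with TNC (95% interval -0.22 to 0.14, adjusted p = 0.805). Mbtps1 had 9.42, 9.41 and 9.49 in untreated cells and 9.17, 9.17 and 9.10 with TNC + vehicle, a difference of -0.30 (adjusted p = 0.00534) under 1.5-fold. Mbtps2 had 9.94, 9.97 and 9.93 in untreated cells and 9.77, 9.78 and 9.79 with TNC + vehicle (-0.17, adjusted p = 0.0778). Over the 7 control genes the median difference was -0.04, against 1.18 over the 18 measured enzymes. Stard4, which carries sterol between membranes, had 8.63, 8.77 and 8.84 in untreated cells, 9.48, 9.58 and 9.45 with TNC + vehicle, and 8.77, 8.72 and 8.79 with TNC + TLR4i, and rose 1.69-fold (0.76 ± 0.07, adjusted p = 1.51e-05). These are bulk cultures scaled to a common distribution, in which fewer cells of a type and less RNA per cell cannot be told apart.

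**Figure D3:**
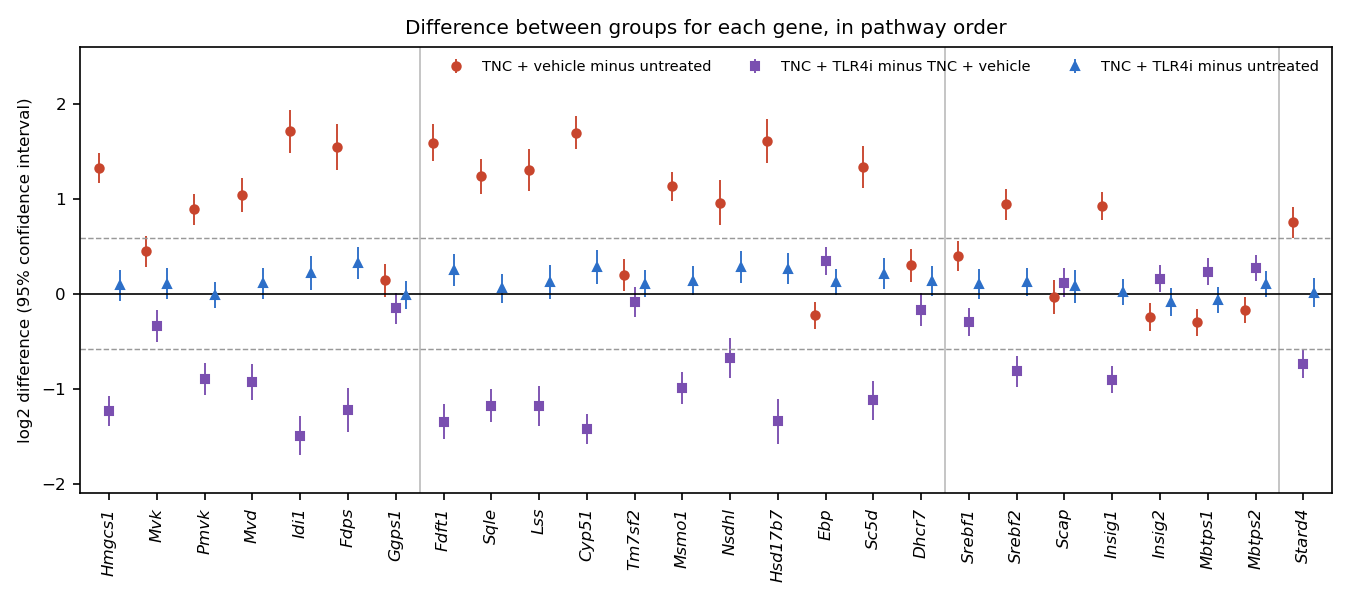
Log2 difference (vertical axis) of each of the 26 genes in pathway order for the 3 comparisons, with 95% confidence intervals from limma; dashed lines mark 1.5-fold. The circles (TNC + vehicle minus untreated) and squares (TNC + TLR4i minus TNC + vehicle) lie on opposite sides of 0 for the 16 called genes, and every interval of the triangles (TNC + TLR4i minus untreated) lies inside the dashed lines.

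The second comparison asked what the TLR4 inhibitor did in TNC-treated cells, against TNC with vehicle. Sterol genes fell, with 5 of 7 genes of the mevalonate arm, 8 of 11 of the sterol arm, Srebf2, Insig1 and Stard4 called lower and 0 members called higher. The falls ran from 1.60-fold for Nsdhl to 2.81-fold for Idi1, and 9 genes fell at least 2-fold. Of all genes, 4.05% were called lower and 4.25% higher. The median over the 26 was -0.86. At an adjusted p under 0.05 and any size, 18 members were lower (11.4% of all genes) and 3 higher (17.1% of all genes). At an unadjusted p under 0.05, 4 members were higher, again without a counted share over all genes. The 16 genes called lower were the 16 called higher with TNC, but the TNC + vehicle arrays enter both comparisons, so this is not a second, independent observation.

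Idi1 fell by 1.49 on the log2 scale, followed by Cyp51 with -1.42 (2.67-fold lower), Fdft1 with -1.35 and Hsd17b7 with -1.34. Hmgcs1 fell 2.35-fold (-1.24, adjusted p = 1.27e-07), and Fdps fell by 1.22. Sqle and Lss each had -1.18, Sc5d -1.12, Msmo1 -0.99, Mvd -0.93 and Pmvk -0.90. With the inhibitor the arrays lay at 9.64 to 9.73 for Sqle, 8.62 to 8.82 for Lss, 9.76 to 9.85 for Sc5d, 10.40 to 10.59 for Msmo1 and 8.27 to 8.51 for Mvd, in each gene below all 3 TNC + vehicle arrays. Nsdhl fell least of the called enzymes, at -0.67 (adjusted p = 0.000255), and without the third TNC + vehicle array its difference was -0.57, under 1.5-fold. Mvk had -0.34 (adjusted p = 0.00661), under the size needed. Ggps1 (-0.15, adjusted p = 0.176), Tm7sf2 (-0.09) and Dhcr7 (-0.17, adjusted p = 0.180) did not pass.

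Insig1 fell 1.87-fold (-0.90), Srebf2 1.76-fold (-0.82) and Stard4 1.67-fold (-0.74), while Srebf1 had -0.30 (adjusted p = 0.00613). Within arrays, the change of Insig1 relative to Insig2 was -1.06 and that of Srebf2 relative to Srebf1 was -0.52, each with p = 0.1 in the exact permutation test. With the other probe set of Srebf2 the change was -0.11 (exact permutation test, p = 0.6), and with the other 2 of Insig2 it was -0.89 and -1.05. The 3 members that were higher at an adjusted p under 0.05 were Ebp (0.35, adjusted p = 0.00218), Mbtps2 (0.27, adjusted p = 0.00835) and Mbtps1 (0.23, adjusted p = 0.0230), all under 1.5-fold. The TNC + TLR4i arrays were at 10.02 to 10.09 for Mbtps2 and 9.34 to 9.43 for Mbtps1, above all 3 TNC + vehicle arrays of each. Insig2 had 0.16 (adjusted p = 0.106) and Scap 0.12.

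The third comparison set TNC with the inhibitor against untreated cells. There was no group of inhibitor alone or of vehicle alone. A remaining TNC response and effects of the inhibitor or its solvent therefore cannot be told apart here. No sterol gene was called, with 0 of 26 higher and 0 lower (0.0605% and 0.198% of all genes), and 0 passed an adjusted p under 0.05 at any size (0.297% of all genes higher and 0.506% lower). For each of the 26 the 95% interval lay inside 1.5-fold in both directions, with an upper bound of at most 0.49 (1.41-fold), that of Fdps. At an unadjusted p under 0.05, 7 members were higher (4.83% of all genes) and 0 lower. Of the 26, 22 had a difference above 0 (54.2% of all genes), with a median of 0.11 against 0.01 over all genes, and in 10 the TNC + TLR4i arrays all lay above the untreated arrays (8.61% of all genes). The genes share their arrays and are not independent of each other, so these counts are a description.

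The 7 genes higher at an unadjusted p were enzymes of both arms. Fdps had the largest difference (0.32 ± 0.08, adjusted p = 0.121 in limma), followed by Nsdhl (0.28), Cyp51 (0.28), Hsd17b7 (0.27), Fdft1 (0.25), Idi1 (0.22) and Sc5d (0.21). In each of these the lowest TNC + TLR4i array lay above the highest untreated array. By contrast Hmgcs1 (0.09), Sqle (0.06), Insig1 (0.02), Stard4 (0.01) and Pmvk (-0.01) had differences near 0 and overlapping arrays. A dimmer Fdft1 probe set gave 0.35 with an adjusted p of 0.0418, again under 1.5-fold.

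In the first array of each group most members deviated the same way from the other 2. In the first untreated array 23 of the 26 were lower than the mean of the other 2 untreated arrays, with a median of -0.11, while 50.4% of all genes were lower. In the first TNC + vehicle array 22 of 26 were lower (median -0.13, with 49.7% of all genes lower), and in the first TNC + TLR4i array 22 of 26 were higher (median 0.06, with 47.0% of all genes lower). In the second TNC + TLR4i array 21 were lower (median -0.07, with 55.2% of all genes lower), and replicate 3 of that group had 13 lower and 13 higher. Replicates 2 and 3 of the other 2 groups had 16 to 22 members higher. Leaving out each array in turn, 20 to 23 members stayed above 0 in the third comparison, 5 to 11 were higher at an unadjusted p under 0.05, and the median ran from 0.08 to 0.15. Over all genes, 51.9 to 56.2% were above 0 and 3.67 to 5.25% higher at an unadjusted p in the same fits. The lowest of these counts, 20 and 5, came without the first untreated array.

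The probe sets of a gene mostly gave the same direction where they were bright. The 26 genes carried 58 probe sets, of which 31 were called higher and 0 lower with TNC. With TLR4i against TNC + vehicle, 28 were called lower and 0 higher, and 0 were called in the third comparison. The share over all probe sets was not counted. By the brightest probe set of each gene, 3.74% of all genes were called higher with TNC and 4.05% lower with TLR4i. All 5 probe sets of Hmgcs1, all 3 of Sc5d and all 3 of Stard4 were called higher with TNC. With TLR4i against TNC + vehicle, 4 of the 5 of Hmgcs1, 1 of the 3 of Sc5d and all 3 of Stard4 were called lower. The probe sets of Sc5d ran from -1.12 to -0.42 there. Probe sets that did not follow their gene were mostly dim, such as a further probe set of Fdps (0.09), of Fdft1 (0.05) and of Hsd17b7 (-0.09). The further probe set of Srebf2 at 0.49 was of similar brightness to the one described. RMA values level off towards the background, so a fold of a dim probe set is understated.

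**Figure D4:**
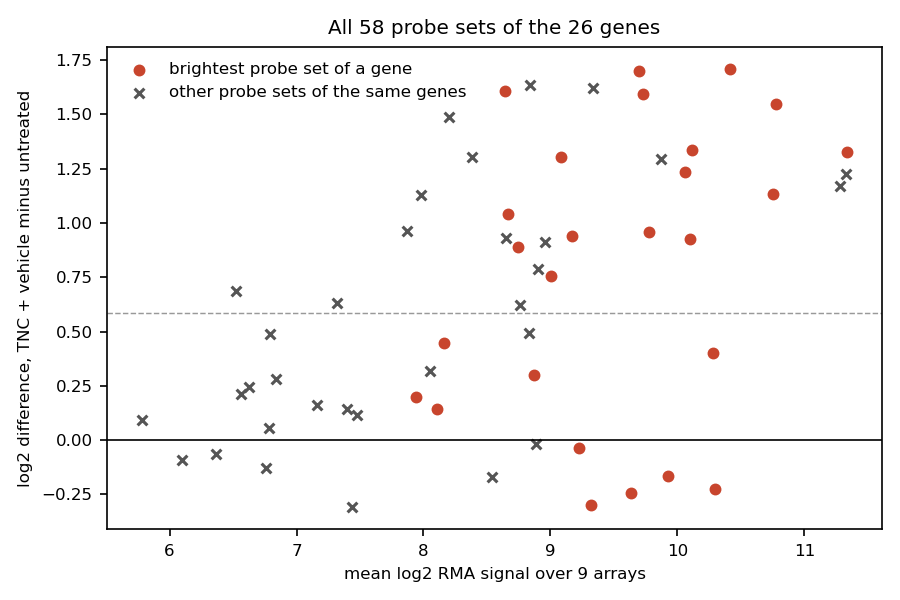
Log2 difference with TNC (vertical axis) against the mean log2 RMA signal over 9 arrays (horizontal axis) for all 58 probe sets of the 26 genes, with circles for each gene's brightest and crosses for the others; the dashed line marks 1.5-fold. The crosses at the left, with a low mean signal, lie mostly under the dashed line, while the brighter crosses spread from below 0 to above 1.5 as the circles do.

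Lists of neighbouring pathways, chosen by what their products do, had medians between -0.14 and 0.19 with TNC. Of 12 genes of fatty acid synthesis and desaturation 4 were called higher and 0 lower with TNC, at a median of 0.19, led by the fatty acid synthase Fasn (0.96), the desaturase Fads2 (0.76) and the stearoyl-CoA desaturase Scd2 (0.67). With TLR4i against TNC + vehicle, Fasn (-0.73) and the acetyl-CoA synthetase Acss2 (-0.71) fell and the desaturase Fads1 rose (0.67). Of 9 genes that use isoprenoids, such as prenyltransferases, 1 was called, Coq2 of ubiquinone synthesis, which rose by 0.66 with TNC and fell by 0.75 with TLR4i. None of 5 redox partners and accessory sterol proteins and none of 7 genes of the ubiquitin machinery that acts on sterol enzymes and Insigs were called by limma in either comparison. At an unadjusted p under 0.05, the redox list had 2 higher and 2 lower with TNC and 2 higher and 1 lower with TLR4i, and the ubiquitin list 2 higher and 1 lower with TNC and 2 higher and 2 lower with TLR4i.

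Among 6 genes of endosomal cholesterol export, Stard3 rose (0.76) with TNC and Npc1 fell (-0.84), the transporter that moves cholesterol out of late endosomes. With TLR4i, Stard3 fell by 0.93, and Npc1 (0.97) and the lysosomal lipase Lipa (0.92) rose. Of 7 genes of liver X receptor (LXR) and oxysterol biology, Ch25h, which makes an oxysterol that holds SREBP back, rose 3.53-fold with TNC (1.82) and fell by 1.83 with TLR4i. Nr1h3, an LXR itself, rose by 1.04 and fell by 1.01. Cyp27a1, another oxysterol-forming enzyme, fell 2.44-fold (-1.29) and rose with TLR4i by 1.25. No gene of these 6 lists was called by limma in the comparison of TNC + TLR4i with untreated cells, where the unadjusted p was under 0.05 for 4 genes of the fatty acid list and 3 of the LXR list, all above 0, for 1 above and 1 below 0 in endosomal export, for 1 below 0 in each of the isoprenoid and redox lists and for 0 of the ubiquitin list (4.83% of all genes were higher at that p). Lipa (0.42, adjusted p = 0.00837) and Mylip of the LXR list (0.45, adjusted p = 0.00819), the latter picked out after its values were seen, passed the adjusted p there but not 1.5-fold.

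**Figure D5:**
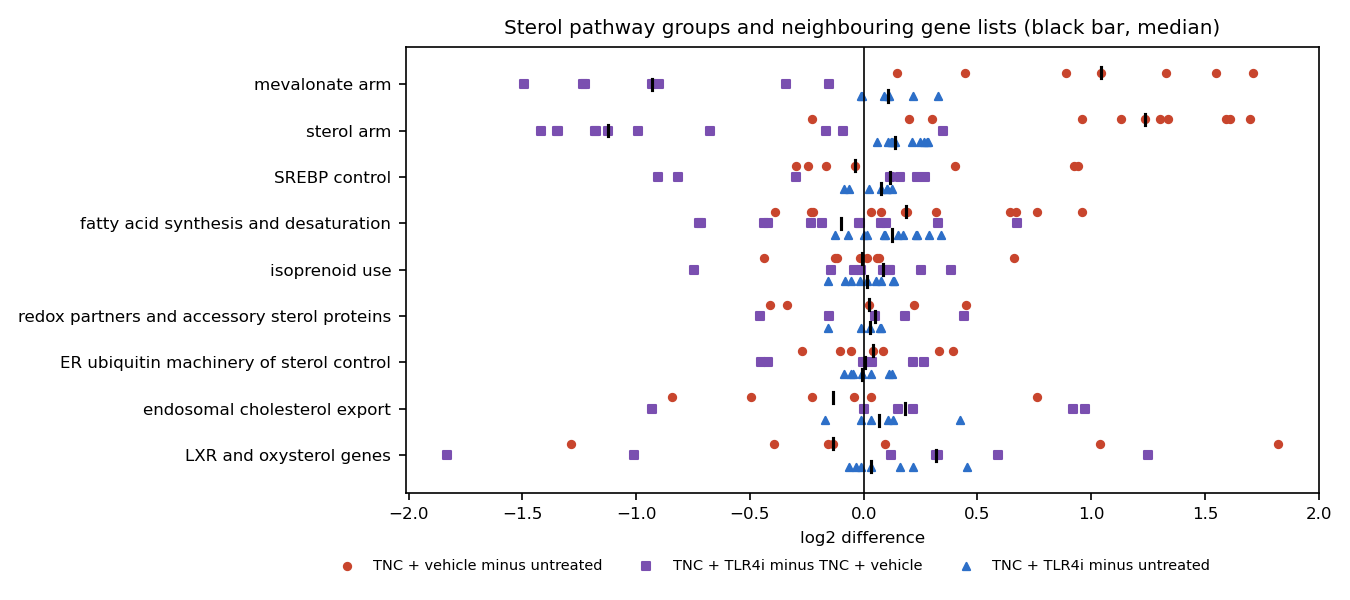
Log2 difference (horizontal axis) of each measured gene in 3 sterol pathway groups and 6 neighbouring lists, for the 3 comparisons, with black bars at the medians. In the mevalonate and sterol arms the circles (TNC + vehicle minus untreated) centre at 1.04 and 1.24, while in the same comparison the medians of the 6 neighbouring lists lie between -0.14 and 0.19.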

How the data were processed

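RNA of 9 BMDM cultures, 3 in each of 3 groups set by the treatment label, was hybridised to Affymetrix arrays. The authors normalised the arrays with RMA (background correction, quantile normalisation and a summary per probe set) in Chipster and deposited log2 values of 45101 probe sets, used here as deposited. Quantile normalisation gives all arrays the same distribution, so a shift of total RNA cannot be seen, and the number of arrays limits the precision. Gene names came from GEO's platform annotation, in which 34945 probe sets had 1 gene, 932 several and 9160 none listed.

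Each pair of groups was fitted on its own 6 arrays with limma 3.58.1 (lmFit and eBayes, two-sided) in R 4.3.3, without 64 array control probe sets, and p-values were Benjamini-Hochberg adjusted over 45037 probe sets. Paralogs were compared within arrays by exact permutation tests. Calls and shares over genes use the brightest single-gene probe set of each. All members were named, and of each neighbouring list at most the 3 called genes with the largest differences in a comparison. The members and lists were chosen with earlier results of these data known. The model was tested on simulated data. Alternatives were another normalisation or scaling, a fit over all arrays, a replicate block, filters, weights, other thresholds and leaving out each array. Promoters came from RefSeq. Replicate arrays correlated at 0.994 to 0.996 and none was a duplicate.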

Additional observations from a re-analysis of the deposited data

How the results depend on the processing

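Of the counts of members called, 3 moved by more than 1.5 times, all by the threshold itself. With no minimum fold, 3 members were lower with TNC and 3 were higher with TLR4i against TNC + vehicle, both 0 as reported. With a minimum fold of 2, 9 were lower with TLR4i, against 16. With no minimum fold 19 were higher with TNC and 18 lower with TLR4i, with a minimum fold of 2, 11 were higher with TNC, and testing against 1.5-fold itself (treat) gave 14 and 13. Each other fit on all arrays gave 16 and 16. With the replicate block, 16 were called higher with TNC and 16 lower with TLR4i, and the paralog changes kept their values with a smallest possible p of 0.25. Over all probe sets the deviations of same-numbered arrays correlated at -0.0961 to 0.136, not all over 0.1, so the numbers were not taken to pair the arrays. The change of Srebf2 relative to Srebf1 fell from 0.54 to 0.31 as the mean of probe sets and to 0.09 with the other Srebf2 probe set with TNC, and moved from -0.52 to -0.32 and -0.11 with TLR4i. Leaving out single arrays gave 16 higher in the first comparison and 15 to 16 lower in the second, the 15 without the third TNC + vehicle array, where Nsdhl had -0.57. No call was made in the third comparison in any setting. Differences near 0 changed sign: with TNC, Scap had 0.00443 under cyclic loess and -0.112 to 0.0295 with single arrays left out, and in the third comparison Ggps1 had 0.00506 with array weights, 0.0131 as the mean of its probe sets and -0.0614 to 0.0331 with arrays left out. In that comparison Stard4 had -0.00415 under cyclic loess and -0.0441 to 0.0591 with arrays left out, Pmvk -0.0365 to 0.0177 and Insig1 -0.0195 to 0.0454. The causes were not tested. Dim probe sets near the background limit what can be seen for the genes with the lowest signals.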
